A study of Drosophila melanogaster with 3 samples.

Results

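Labial binding was described at 10 head and brain patterning genes of Drosophila melanogaster, out of 13968 protein-coding genes. They are the head gap genes ems, oc and btd, the eye determination genes ey, toy, so, eya and Optix, and the neural column genes vnd and ind. The genes were chosen by name, because Labial patterns the embryonic head and the tritocerebrum. The rule uses no measured value, although earlier results of these data were known when the genes were chosen. Each was taken with 5 kb on either side. Chromatin was precipitated with an antibody against GFP from whole embryos of both sexes, 0 to 24 h old, of a transgenic line in which GFP is joined to the C terminus of Labial. There was 1 group with 3 biological replicates. What drives the transgene is not given in the sources used here, and no embryos without the fusion were analysed here. The lists pool all tissues of many embryos, so a summit cannot be assigned to head or brain cells.

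Labial is the most anterior homeotic protein of the fly, a homeodomain factor that binds DNA together with the cofactor Exd and is needed to form the tritocerebrum, the hindmost part of the embryonic brain. Head gap genes subdivide the anterior head of the early embryo. The retinal genes form a network in which Pax6 proteins act above homeodomain proteins of the sine oculis family and their coactivator Eya. The columnar genes divide the neuroectoderm from ventral to dorsal in brain and nerve cord.

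The authors deposited a ranked list of 30000 peaks for each replicate and another for the pooled reads, each peak with a signal and a summit. Their optimal list after an irreproducible discovery rate (IDR) threshold held 10160 peaks and was exactly the strongest part of the pooled list. Signal is the authors' value and is used here only to rank peaks within a list, with rank 1 the strongest. Read depth is unknown. No peak with the same interval and signal stood in the lists of any pair of replicates. The lists were called against a control that the replicates share, which was not analysed here. With 1 group, no test between conditions was possible, and the spread given is that between the replicates.

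The IDR summits of the 10 genes all ranked low in the list. An IDR summit lay within the gene or its 5 kb flanks at 5 of the 10 genes, against 58.7% of all protein-coding genes. That share is not adjusted for gene length. Sets of genes of similar length, described below, had a summit in 72.3% on average, and in 69.9% without the sets of the 2 genes on chromosome 4. These differences were not tested. The genes with a summit were ems, oc, so, Optix and vnd, and without the 2 genes on chromosome 4 the count was 5 of 8. They held 6 summits in all, with ranks from 7115 to 9876 of 10160, so 70.0% of all IDR peaks were stronger than the strongest of them. The signals ran from 203 to 269, where the IDR list had a median of 355 and ended at 197.9. Among genes with an IDR summit, the rank of the strongest had a median of 8662 over the 5 head and brain genes and 2288 over all genes. None of the 10 genes had an IDR summit within 500 bp of a start site of its own, against 25.5% of all genes.

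Sequence around the summits is shown where the reading turns on it, as 201 bases centred on the summit (dm6, plus strand, from the NCBI Release 6 genome). Capitals mark matches to any of 7 searched motifs. The first set holds the IDR summits of ems at 3R:13907774-13907974, oc at X:8627270-8627470 and vnd at X:598391-598591. The summits of so and Optix also passed the IDR threshold and are not shown.
ems: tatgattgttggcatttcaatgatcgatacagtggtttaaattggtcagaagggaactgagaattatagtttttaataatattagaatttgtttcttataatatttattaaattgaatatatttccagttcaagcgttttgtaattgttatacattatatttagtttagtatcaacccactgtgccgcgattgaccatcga
oc: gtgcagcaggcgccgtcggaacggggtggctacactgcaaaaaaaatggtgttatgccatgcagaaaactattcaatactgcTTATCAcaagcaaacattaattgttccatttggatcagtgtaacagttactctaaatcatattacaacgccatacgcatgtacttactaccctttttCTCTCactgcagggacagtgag
vnd: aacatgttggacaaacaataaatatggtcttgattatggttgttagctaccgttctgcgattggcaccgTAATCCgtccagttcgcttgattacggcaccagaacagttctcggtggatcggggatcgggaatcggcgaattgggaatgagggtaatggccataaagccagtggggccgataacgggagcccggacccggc
In oc the capitals are a GATA site, whose first base lies 18 bases before the summit, and a GAGA match that starts 79 bases after it. In vnd they are a TAATCC site, the type bound by Bicoid and Oc, that starts 31 bases before the summit. The ems window, of 28.4% GC, held no match.

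The second set holds weaker summits at the start sites of 4 genes, from the pooled list below the IDR threshold. They lie at 3R:13901693-13901893 for ems, X:8650935-8651135 for oc, X:9693920-9694120 for btd and X:581924-582124 for vnd. They are shown because they are all the pooled-list summits within 500 bp of a start site of the 10 genes.
ems: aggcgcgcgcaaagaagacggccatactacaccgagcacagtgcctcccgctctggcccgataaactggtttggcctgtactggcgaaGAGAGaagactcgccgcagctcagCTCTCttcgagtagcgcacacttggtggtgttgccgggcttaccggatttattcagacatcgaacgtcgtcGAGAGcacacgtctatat
oc: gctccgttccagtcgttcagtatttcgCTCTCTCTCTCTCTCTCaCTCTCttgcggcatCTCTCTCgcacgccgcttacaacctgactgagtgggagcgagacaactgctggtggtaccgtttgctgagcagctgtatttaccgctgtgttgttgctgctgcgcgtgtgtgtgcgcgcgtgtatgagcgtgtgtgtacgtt
btd: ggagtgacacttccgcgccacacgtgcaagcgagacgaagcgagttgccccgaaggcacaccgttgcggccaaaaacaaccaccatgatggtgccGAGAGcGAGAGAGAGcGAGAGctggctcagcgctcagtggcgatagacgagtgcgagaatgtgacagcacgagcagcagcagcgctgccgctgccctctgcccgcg
vnd: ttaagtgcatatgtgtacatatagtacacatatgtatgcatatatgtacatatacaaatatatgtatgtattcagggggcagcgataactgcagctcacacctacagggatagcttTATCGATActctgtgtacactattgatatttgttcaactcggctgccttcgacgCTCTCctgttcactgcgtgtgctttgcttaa
The oc and btd windows carry runs of these letters, and the vnd window also holds a DRE site, the element of many housekeeping promoters, that starts 16 bases after the summit. The GAGA letters, GAGAG on either strand, were in all 4 windows. They were also in 31.5% of the 3231 pooled summits below the IDR list within 500 bp of a start site, and in 25.0% of windows of the same length around 19275 protein-coding start sites. Over all 24 weaker summits of the 10 genes, the letters were at 9. The comparison at start sites was made after the matches had been seen, and it was not tested.

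**Figure D1:**
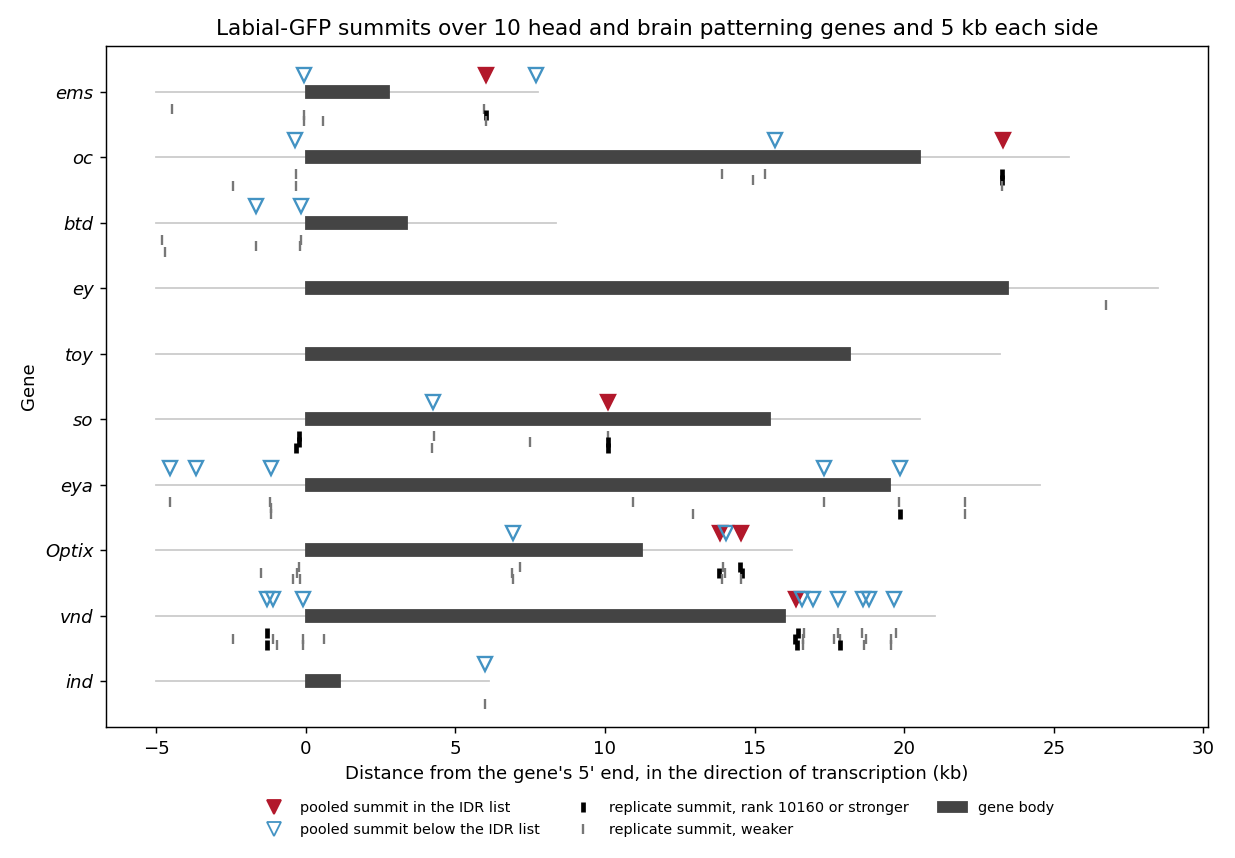
Summits over each gene and 5 kb on either side, drawn by distance in kb from the gene's 5' end in the direction of transcription. Triangles above each gene are pooled-list summits and ticks below it are the summits of replicates 1, 2 and 3 from top to bottom. Of the 6 IDR summits 5 lie beyond the 3' end of the gene, a share not counted over all genes, and toy has no summit in any list.

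The head gap genes carried 1 low-ranking IDR summit each at ems and oc, and none at btd. ems (3R:13901853-13904620, FBgn0000576) encodes a homeodomain protein of the head and anterior brain. Its IDR summit lay at 13907874 in intergenic sequence, 3254 bp beyond the 3' end of the gene, with ems the nearest start site at 6021 bp. It had rank 9684 and a signal of 207 in the pooled list. In the replicates' own lists it ranked 11397, 8385 and 10995, so only replicate 2 placed it among its 10160 strongest peaks. The start site of ems had a summit 60 bp upstream at rank 18903, which replicates 2 and 3 listed at ranks 18662 and 19352 and replicate 1 did not list.

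oc (X:8630159-8650681, FBgn0004102), also called orthodenticle, encodes a homeodomain protein of the anterior head and brain. It held the strongest IDR summit of the 10 genes, at 8627370, in intergenic sequence 2789 bp beyond the 3' end, with rank 7115 and a signal of 269. The replicates ranked it 7038, 6437 and 10745, so replicates 1 and 2 placed it among their strongest 10160 peaks and replicate 3 just below them. At the start site a summit 354 bp upstream had rank 11650 in the pooled list and ranks 12686 and 11987 in replicates 1 and 3. Replicate 2 listed none there.

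btd (X:9694186-9697558, FBgn0000233) encodes a zinc finger protein of the Sp family. It had no IDR summit, and 2 pooled-list summits lay upstream of it. The summit 166 bp from its start site had rank 13912 and a signal of 148, with ranks 10759 and 17709 in replicates 1 and 2 and no entry in replicate 3. The other lay 1673 bp upstream at rank 20193, in replicate 2 alone. Neither replicate with a start-site summit placed it among its strongest peaks. A much stronger IDR peak, of rank 298 and signal 1911, lay 6469 bp from btd and so outside the window, 651 bp from a start site of nej, the gene of the acetyltransferase CBP.

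The 2 Pax6 genes, ey and toy, encode paired-domain proteins at the top of the eye network. They lie on chromosome 4 and had no summit in the pooled list. ey (4:697689-721173, FBgn0005558) had a single entry in any list, in replicate 1 at rank 22677, beyond its 3' end and 46 bp from a start site of the neighbouring gene bt. The other gene, toy (4:989725-1007922, FBgn0019650), had none in any list. The nearest IDR summit to ey lay 196 kb away, at a promoter of zfh2, and that nearest to toy 6.75 kb away in intergenic sequence, at rank 1415. Chromosome 4 as a whole held few summits, 9 in the IDR list (6.68 per Mb) against 71.7 to 82.4 per Mb on the large arms. Of its 78 other protein-coding genes, 9 (11.5%) had an IDR summit in the window, and the same number had a pooled-list summit. The lack of summits at ey and toy cannot be told apart from the low density of the chromosome.

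so (2R:7419350-7434872, FBgn0003460) encodes the founding homeodomain protein of the sine oculis family, the partner of Eya. Its IDR summit lay in an intron at 7429467, 10117 bp from the so start site and 874 bp from that of CG11145, with rank 9876 and a signal of 203, the weakest of the 6. The replicates ranked it 13092, 9088 and 8883.

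The strongest signal at any of the 10 genes in the replicates' own lists was at the so start site, and the pooled list does not hold it. Replicates 1, 2 and 3 had summits 231, 213 and 314 bp upstream of the start site, with signals of 105, 130 and 114 and ranks 5465, 4625 and 6510. Each was the best rank over all 10 gene windows in its replicate. No interval of the pooled list covered any of these summits, so the IDR list, a part of the pooled list, could not hold them either. Such cases were rare. Of 7277 summits in replicate 1's strongest 10160 peaks with a partner within 200 bp in the strongest peaks of both other replicates, 33 (0.453%) had no pooled summit within 500 bp, and so was the only one of the 10 genes among them. Why the pooled call lacks these peaks was not tested.

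Optix (2R:8031283-8042529, FBgn0025360), the gene of another homeodomain protein of that family, had 2 IDR summits, more than any other of the 10 genes. They lay 2608 and 3293 bp beyond its 3' end, at 8045137 and 8045822, with ranks 8662 and 8925 and signals of 229 and 222. The first ranked 6550 and 10743 in replicates 2 and 3 and had no summit within 100 bp in replicate 1, which instead had one at rank 11874 that matched a weaker pooled summit 2808 bp beyond the gene. The second ranked 8690, 7293 and 11611. The start site of Optix resembled that of so: all 3 replicates listed summits 213, 301 and 423 bp upstream, at ranks 14854, 11484 and 14654, and no interval of the pooled list covered them.

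eya (2L:6527447-6546976, FBgn0000320) encodes a transcriptional coactivator that is also a phosphatase. It had no IDR summit and 5 pooled-list summits, the strongest 316 bp beyond its 3' end at rank 12593. That summit ranked 9217 in replicate 3 and 26473 in replicate 1, and replicate 2 did not list it. The next, 1164 bp upstream of a start site, had rank 14137 and ranks 18737, 22177 and 11585 in the replicates. Replicate 3 thus ranked both higher than the other replicates did. Over the whole window replicates 1, 2 and 3 listed 6, 1 and 4 summits of any rank at eya.

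vnd (X:582121-598151, FBgn0261930), which encodes the NK2 homeodomain protein of the ventral column, had the only IDR summit matched in all 3 replicates. It lay at 598491, 340 bp beyond the 3' end of vnd and in an intron of spdi, with rank 8136 and a signal of 241. The replicates ranked it 8691, 7558 and 8597, each within its strongest 10160. vnd also had 9 pooled-list summits below the IDR list, more than any other of the 10 genes, though some of their peaks overlap. Of these summits, 6 followed the IDR summit in intron sequence of spdi, up to 3630 bp beyond the vnd end. The other 3 lay upstream within 1295 bp of the vnd start site. The one at 580826 had rank 10472 and a signal of 193, just under the IDR threshold. Replicates 1 and 3 placed it at ranks 9779 and 9226, and replicate 2 had no summit within 100 bp.

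ind (3L:15042799-15043924, FBgn0025776), the homeodomain gene of the intermediate column, had no IDR summit. Its window held 1 pooled-list summit, of rank 13408, in an intron of the neighbouring synaptotagmin gene Sytbeta, 4880 bp beyond ind. It was listed by replicate 2 at rank 14814 and by neither other replicate.

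**Figure D2:**
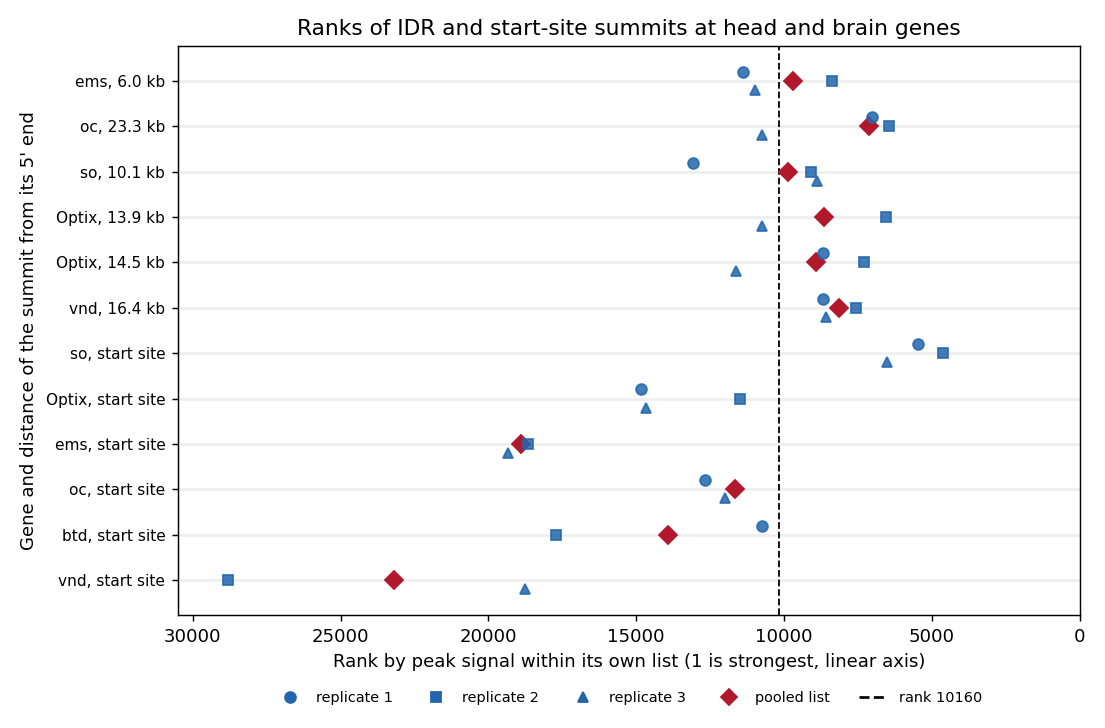
Rank by signal, on a linear axis with the strongest at the right, of the 6 IDR summits and of the start-site summits of 6 genes in the pooled list and in replicates 1, 2 and 3. Only the vnd summit and the so start site have all 3 replicates to the right of the dashed line at rank 10160, and the start sites of so and Optix have no pooled rank.

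The replicates were compared summit by summit. A summit counted as matched where a replicate had a summit within 100 bp among its 10160 strongest peaks. Of the 6 IDR summits of these genes, 1 was matched in all 3 replicates, 3 in exactly 2 and 2 in only 1. The matched one was at vnd, so 1 of the 10 genes had such a summit, against 49.7% of all genes. Over all IDR summits 64.7% were matched in all 3 replicates. Among the 2762 IDR summits with ranks from 7115 to 9876, 443 were matched in all 3 replicates, a share close to the 1 of 6 here. The shares of 49.7% of genes and 64.7% of summits cover all ranks. They are therefore not a like comparison for these low-ranking summits, whose replicate support was near that of other summits in their rank range. The replicates' whole lists of 30000 matched 5 of the 6 summits in all 3 replicates, against 81.4% of summits in that rank range. The IDR list was made from these replicates, so the matches are not independent evidence.

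The strongest 10160 peaks of replicates 1, 2 and 3 placed 5, 7 and 6 summits in the 10 windows, a mean of 6 ± 1 (SD, n = 3). They fell in 4, 5 and 3 genes, against 62.6%, 58.4% and 59.9% of all genes. Only so and vnd had such a summit in all 3 replicates, 2 of 10 genes against 52.9% of all genes. Neither btd, ey, toy nor ind had one in any replicate. ems had one in replicate 2 only and eya in replicate 3 only.

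Start sites were then taken on their own, within 500 bp. In the pooled list 4 of the 10 genes had a summit there, ems, oc, btd and vnd, against 38.1% of all genes. All 4 ranked below the IDR threshold. In the replicates' whole lists, so and Optix had a start-site summit in all 3 replicates, 2 of 10 genes against 31.9% of all genes. ems, oc, btd and vnd had one in exactly 2 replicates, eya in 1, and ey, toy and ind in none. Among the strongest 10160 peaks only so had one in all 3, 1 of 10 genes against 20.6% of all genes.

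Including peaks below the IDR threshold, 8 of the 10 genes had a summit in the window, against 74.7% of all genes. btd, eya and ind entered only through such weak peaks. The pooled list held 30 summits in the 10 windows, 6 in the IDR list and 24 below it. Of the 24, 4 were found in all 3 whole replicate lists within 100 bp, 10 in exactly 2, 5 in 1 and 5 in none. The share in all 3 was 27.3% over all 19840 pooled peaks below the IDR list.

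Positions were read for both parts of the pooled list, without a test of the difference. Of the 6 IDR summits, 5 lay beyond the 3' end of the gene, 1 inside the gene and none upstream. The 5 include the 2 neighbouring summits of Optix. These positions were not counted over all genes, so no background share stands beside them. By class, 4 were intergenic and 2 intronic. IDR summits with ranks from 7115 to 9876 were 22.3% intergenic, 47.1% intronic and 27.8% at promoters. Of the 24 weaker summits, 10 lay upstream, 4 in the gene and 10 beyond its 3' end. For 28 of all 30 summits the nearest protein-coding start site was the gene's own, the exceptions being those nearest to CG11145 and Sytbeta.

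**Figure D3:**
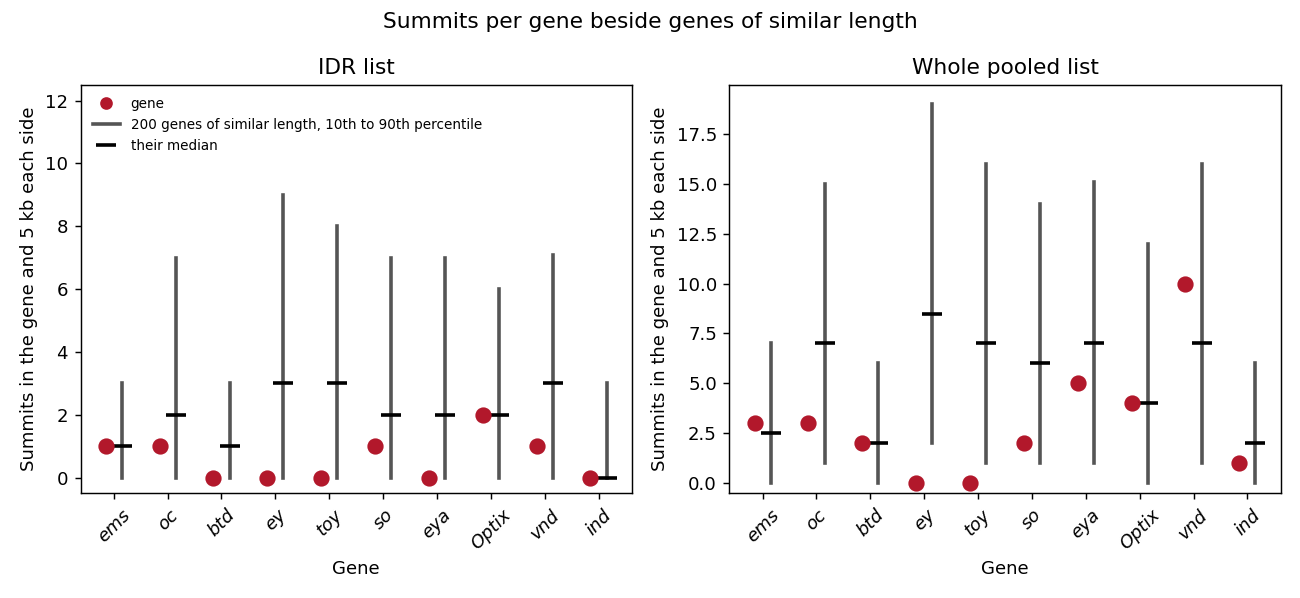
Summits in the gene and 5 kb on either side for each of the 10 genes (points) beside the 10th to 90th percentile (bars) and median (dashes) of the 200 protein-coding genes nearest in length, for the IDR list and for the whole pooled list. In the IDR list Optix with 2, ems with 1 and ind with 0 equal the median and the others lie below it, and in the pooled list vnd with 10 and ems with 3 exceed it, while ey has 0 summits in the pooled list where its bar starts at 2.

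Longer genes hold more summits, so each gene was set beside the 200 protein-coding genes nearest to it in length. An IDR summit was present in 48.5% of the genes similar to ind, the shortest, and in 85% of those similar to ey, the longest, with a mean over the 10 sets of 72.3%. The mean IDR summits per gene in these sets add up to 25.2, where the 10 genes held 6. Without ey and toy the sum was 18.1 for the other 8 genes, which held the same 6, and the mean share with a summit was 69.9%. In the whole pooled list the sums were 61.1 over the 10 sets, against 30 summits found, and 43.2 over the 8.

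Gene by gene, the IDR counts stayed within the 10th to 90th percentiles of the similar genes, which began at 0 in every set. vnd had 1 IDR summit where similar genes had a median of 3, and eya had 0 against 2. The counts of ems, Optix and ind equalled the medians of their sets, 1, 2 and 0. The median best rank among similar genes with an IDR summit ran from 1663 to 2739 over the 10 sets, where the 5 genes had ranks from 7115 to 9876. Here too a best rank improves with the number of summits in the window. In the whole pooled list vnd had 10 summits against a median of 7, and ems 3 against 2.5. No other of the 10 genes exceeded its median. Of the 10, ey and toy lay below the 10th percentile, with 0 summits where it was 2 and 1.

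Counted per length, the windows of the 10 genes held 2.59 IDR summits per 100 kb, against 9.33 in the windows of all genes. Without chromosome 4 the densities were 3.53 and 9.40. Windows of neighbouring genes overlap, so over all genes a summit counted once for every window that held it. With each summit counted once, the large arms held 71.7 to 82.4 IDR summits per Mb. For the pooled list without chromosome 4 the densities in the windows were 17.6 and 23.0, counted in the same way. None of these differences was tested.

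The 7 motifs were searched within 100 bp of each summit on both strands. The Exd-Lab site, TGATTGAT or TGATGGAT, was at none of the 6 IDR summits and at none of the 24 weaker ones. It was at 3.34% of all IDR summits and 2.06% of windows 500 bp away. GATA sites, written TGATAA with its variants AGATAA and TGATAG and also AGATAG, were at 3 of the 6, those of oc and both of Optix, against 40.3% of all IDR summits and 32.0% of windows 500 bp away. The homeodomain core TAATTA was at 1 of 6, an Optix summit, against 14.7% and 12.9%. TAATCC was at 1 of 6, that of vnd, against 5.49% and 6.71%. GAGAG was at 2 of 6, against 25.6% and 23.8%. The Zelda site CAGGTA, at 4.26% and 4.30%, and the DRE TATCGATA, at 1.98% and 0.561%, were at none of the 6. Of the 24 weaker summits, 7 held a GATA site, 4 TAATTA, 9 GAGAG and 3 the DRE, and none held TAATCC or CAGGTA. Shares over all pooled peaks below the IDR list were not counted. None of the searched forms contains another. A missing match says only that these letters are not in the window.

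GC content was taken in the same windows. Those at the ems and Optix summits had 28.4%, 32.8% and 36.3% GC, and those at oc, vnd and so had 42.8%, 52.2% and 56.7%. The median over all IDR summits was 37.8%, and over windows 500 bp away 41.8%.

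**Figure D4:**
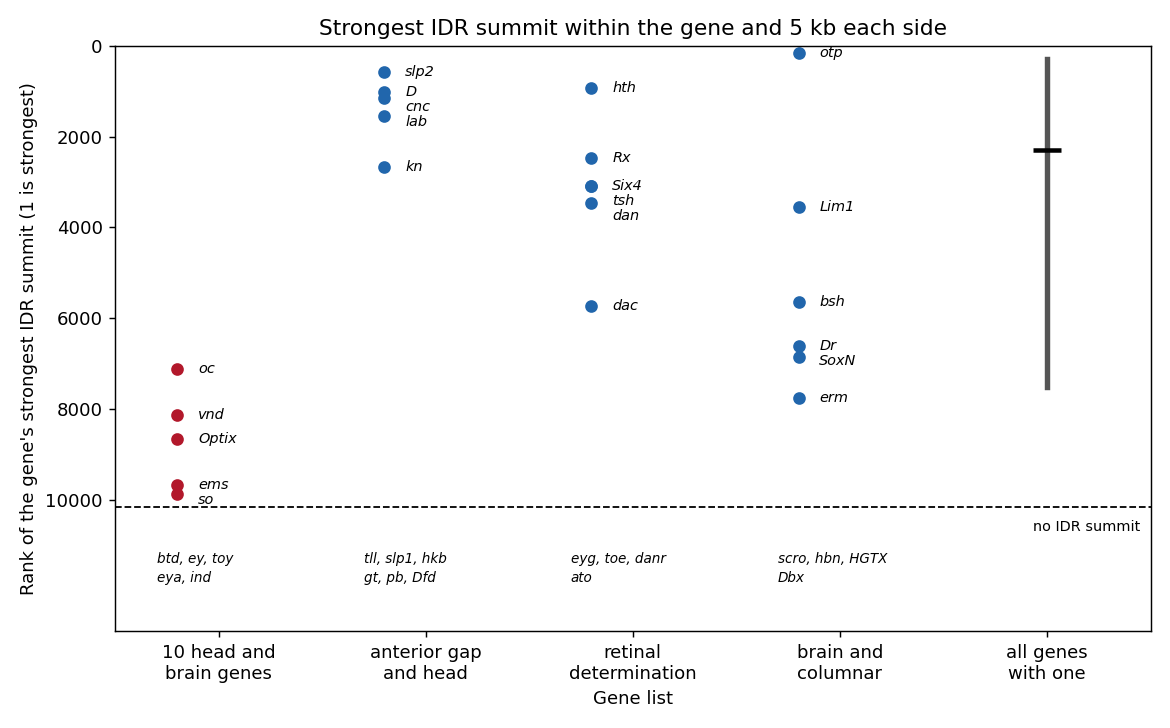
Rank of the strongest IDR summit in the window of each gene (points, strongest at the top) for the 10 head and brain genes and 3 lists of related genes, with genes lacking an IDR summit named below the dashed line; the bar at the right gives the 10th to 90th percentile and the dash the median over all genes with an IDR summit. The 5 head and brain genes with a summit lie between ranks 7115 and 9876, and erm is the only related gene in that range.

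Lists of related genes were read in the same way. Of 11 anterior gap and head genes, 5 (45.5%) had an IDR summit, against 58.7% of all genes, and 5 had one matched in all 3 replicates. Among them slp2, a forkhead gene of head and segments, had a summit of rank 571 and the Sox gene D one of rank 1008. A bZIP gene of the mandibular segment, cnc, had one of rank 1148. Also among the 5 is lab itself, the gene of the tagged protein, with 8 IDR summits and a best rank of 1537. Of the 10 genes grouped here under retinal determination, 6 (60.0%) had an IDR summit, each with one matched in all 3 replicates. The grouping does not state a retinal role for each gene, Rx and Six4 included. The strongest summits were at hth, a cofactor gene, with rank 918, at Rx with rank 2479 and at Six4 with rank 3089. Those of Rx and Six4 lay nearer to the start sites of Act57B and Pcif1.

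Of 10 brain and columnar genes 6 (60.0%) had an IDR summit, again all with one matched in all 3 replicates. otp led with rank 148, at a summit nearest to the start site of Cib2, followed by Lim1 with rank 3559 and bsh with rank 5640, whose summit was nearest to the start site of fbp. Dr, the gene of the dorsal column, which completes the set with vnd and ind, had 2 IDR summits with a best rank of 6618. The near copies of these genes had little: of E5, Sp1, scro, Six4, eyg and toe only Six4 had an IDR summit. The strongest summit outranked every one of the 10 genes in 5, 6 and 5 genes of the 3 lists, with lab among the first 5. This was not tested. Some genes stand in more than 1 list, and counts were not scaled for length. Dfd and eyg also had a summit among the strongest peaks of every replicate, with best ranks of 7711, 4316 and 8350 at Dfd and of 8873, 7079 and 5903 at eyg. Neither had a pooled-list summit anywhere in the window, whereas so had 2 there. Among the replicates' strongest peaks at so, only those at the start site lacked a pooled peak.

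The 5 kb edge decided several counts. The summit farthest outside a gene but inside its window was that of ems at 4914 bp, of rank 29443, and the nearest ones beyond the edge were at 5080 bp from oc and from eya, of ranks 24765 and 24199. The nearest IDR summits beyond it lay 6046 bp from oc, 6469 bp from btd, 6751 bp from toy and 6982 bp from ind. Among these the btd one had rank 298 and the toy one rank 1415, both stronger than any summit inside the windows.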

How the data were processed

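The values are the authors' own. Per the deposited file descriptions, dm6 peaks with background were called in each of the 3 replicates and in the 3 pooled, against 1 shared control, before IDR thresholding. Peak signal, as deposited, was used for rank only, and the deposited −log10 q-value, which reached 4.15, was not used further. Aligner, caller and IDR cut are not given in the sources. The dm3 lists were not analysed here.

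Genes and start sites came from Ensembl release 115 (13968 protein-coding genes) and sequence from NCBI Release 6, the dm6 coordinate system. No peak ended beyond an arm. Coordinates are 1-based, and the summit is the peak start plus the deposited offset. Windows were the gene with 5000 bp on either side. Summits were matched to replicates within 100 bp among the 10160 strongest peaks. Classes were promoter (within 500 bp of a start site), UTR, coding exon, intron and intergenic, in that order. Similar genes were the 200 nearest in length. Motifs were searched in 201 bases, and windows 500 bp to either side served for comparison. The counting rules were tested on simulated data.

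The members and the related lists were chosen with earlier results of these data known. Named were all 10 genes, every IDR summit with its nearest start site, the 3 strongest of each related list and, for genes with no summit, the nearest IDR summit outside. Dr, Dfd, eyg, erm, bt, lab and the nearest outside summits of the other genes were named after their values were seen. No test was made, since there is 1 group. Alternatives changed the flanks, lists, match distance, number of similar genes and motif window, and left out each replicate. Python 3.11.15 was used with numpy 2.4.6, pysam 0.24.0 and matplotlib 3.10.9.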

Additional observations from a re-analysis of the deposited data

How the results depend on the processing

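Counts at these genes are small and moved with most choices: of 59 alternative values, 25 stayed within the margin set (1.5 times for a count) and 34 moved. With the gene alone, 1 kb, 10 kb and 20 kb flanks, 1, 2, 8 and 9 of the 10 genes had an IDR summit, with 1, 2, 17 and 30 summits, of which 0, 1, 6 and 15 were matched in all 3 replicates. All genes had a summit in 19.3%, 37.3%, 74.0% and 88.2% of cases with these flanks. Keeping only the stronger 50% of the IDR list left 0 genes, 0 summits and 0 matched summits. These values restate the low ranks of the 6 summits, and they are among the 34 that moved. The whole pooled list gave 8 genes and 30 summits. Without replicate 1, 2 or 3, counting summits matched in both others, 1 to 3 genes, 1 to 3 summits and 1 to 3 matched summits were found. The summits and the matched summits are the same count there. The count of 5 genes thus depends on accepting IDR summits without support from every replicate. The lowest, 1, was without replicate 2. Matching within 50 bp left 0 matched summits, and whole replicate lists gave 5. Summits per replicate averaged 27.3 in whole lists, and 0.667, 3.00 and 14.3 with the gene alone, 1 kb and 10 kb flanks. Without replicate 1, 2 or 3 this mean ranged from 5.50 to 6.50. The mean share of similar genes with an IDR summit was 59.9% within the same chromosome arm, where all 78 other genes of chromosome 4 stood in for ey and toy. Within 50 bp TAATTA was at 0 and GAGAG at 1 of the 6 summits. Of the alternatives added after the data were seen, leaving out chromosome 4 gave 5 of 8 genes with an IDR summit. A summit among the strongest peaks of each replicate was present at 2 genes, against 52.9% of all genes. An IDR summit nearest to the gene's own start site was present at 4 genes. The share over all genes was not counted for that value, for the stronger 50% of the list or without a replicate. Whether these counts are low therefore cannot be read from them. No paired analysis was possible because all 3 samples belong to the same group. Read depth is unknown, so a missing summit shows only that none was listed.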

Other observations

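Windows wider than 5 kb held more IDR summits. With 10 kb flanks 8 of the 10 genes had one, against 74.0% of all genes, and with 20 kb flanks 9, against 88.2%. The number of summits over all genes was not counted at these flanks. With 10 kb flanks there were 4 IDR summits at ind, 3 at btd, 3 at Optix, 2 at ems, 2 at oc and 1 at toy. The genes so, eya, vnd and ey gained none. With 20 kb flanks ems had 5 summits, Optix 6, ind 5, so 3, eya 3 and btd 3, and vnd still had its single one. ey had none within 20 kb. The nearest summit outside the window was that of ems at 8.86 kb upstream of its start site, with ems the nearest gene, that of Optix at 8.98 kb, nearest to CG12769, that of so at 16.3 kb at the promoter of Fa2h, that of eya at 10.6 kb at the promoter of IFT52 and that of vnd at 20.6 kb within spdi. Which gene such summits belong to was not tested.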
